A study of Mus musculus with 12 samples.

Results

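Accessible chromatin was compared between Kupffer cells of healthy mice and the Tim4-negative cells of the Kupffer cell gate in mice fed a diet that induces NASH (nonalcoholic steatohepatitis, a fatty and inflamed liver). The healthy group, labelled KC-H, held F4/80-high Tim4-positive Kupffer cells from mice on control diet. The Tim4-negative group, labelled KN-RM, held F4/80-high Tim4-negative Kupffer cells from mice on NASH diet. These groups account for 4 of the 12 ATAC-seq libraries of the series, 2 in each group. ATAC-seq uses a transposase to cut and tag open DNA, and its peaks mark open promoters, enhancers and other accessible sites.

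The other groups served as landmarks. KC-N held F4/80-high Tim4-positive Kupffer cells from NASH diet mice, Ly6CLo-RM and Ly6CHi-RM held CD11b-high recruited liver macrophages with low and high Ly6C, and the blood group held Ly6C-high monocytes, all on NASH diet. All mice were C57BL/6J, and flavopiridol, an inhibitor of transcription elongation, was present during liver perfusion and digestion. The age and sex of the mice, and whether cells of several mice were pooled, are not stated by the labels. The groups were defined by surface markers alone, so the labels do not settle whether a KN-RM cell came from a monocyte or was a resident cell that lost Tim4. Diet and Tim4 status also differ together between KC-H and KN-RM, and their parts in any difference cannot be told apart; KC-N differs from KC-H in diet and from KN-RM in Tim4.

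Kupffer cells are the macrophages of the liver sinusoids, where they take up particles, dying cells and old red cells. They are seeded before birth and renew themselves. When they are lost, monocytes from the blood can enter the niche and, under Notch, TGF-beta and BMP signals from endothelial and stellate cells and with the lipid-sensing nuclear receptor LXR-alpha, take on a Kupffer cell program. Tim4, encoded by Timd4, is a receptor for phosphatidylserine on dying cells and is acquired late by such replacement cells. Macrophages of the fatty liver are also known for a Trem2-type program that includes Gpnmb, Spp1, Cd9 and Cd63.

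Each group was represented by 1 deposited peak list, so no spread between replicates could be computed and no difference was tested. Intervals are 95% Wilson intervals over regions and cover counting error only. The KC-H list held 63501 peaks and the KN-RM list 34293 peaks, each peak 200 bp wide. Every list was cut to its 34293 best-scored peaks, which kept 54.0% of the KC-H list and all of the KN-RM list. In the KC-H list the last peak inside the cut and the first outside it both had a score of 45 and a normalized tag count of 15.4. A peak was called KC-H-only or KN-RM-only when no base of it overlapped the other equal-length list. A peak absent from a list can reflect a site closed in most cells, a site open in fewer cells or a weaker library, and these cannot be told apart.

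Marker genes were checked against the labels by counting peaks assigned to each gene, the gene containing the peak centre or otherwise the nearest protein-coding gene within 100 kb. The 7 Kupffer cell markers held 38 KC-H peaks and 19 KN-RM peaks, and 2 of them, Timd4 and Marco, were at 0 in KN-RM. Timd4 held 7 of the KC-H peaks and Marco 10, so these 2 genes made up most of the gap. The 5 general macrophage markers held 34 and 37 peaks, and 4 monocyte markers 9 and 11. The monocyte counts include 3 Ly6c2 peaks in each list that lay outside the gene. The KN-RM label as F4/80-high Tim4-negative cells therefore met general macrophage markers and no Timd4 peak. Timd4 was also at 0 in the equal-length list of KC-N, whose label says Tim4-positive, so an absent Timd4 peak did not follow the Tim4 label. Markers of other cells were sparse in KC-H and KN-RM: hepatocyte 2 and 3 peaks with Alb and Apoa1 at 0 in both, stellate 0 and 0, neutrophil 0 and 0, B cell 1 and 1, T and NK cell 1 and 2 with Cd3e and Ncr1 at 0 in both. Liver endothelial markers held 16 and 13 peaks with Clec4g at 0 in both, and dendritic markers 6 and 9 with Flt3 at 0 in KC-H and 1 in KN-RM.

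The promoters of 7 genes are printed as examples, and they were chosen after their peaks were seen. Each sequence is the 250 bases before the gene start from RefSeq (GRCm38.p6), 5′ to 3′ on the gene's strand. Capitals mark matches, on either strand, to the letters of 6 motifs of macrophage factors: AP-1 (TGANTCA), MAF (TGCTGA), PU.1 (GAGGAAGT), C/EBP (TTGCNNAA), RUNX (TGTGGTT) and nuclear receptors (AGGTCA). Matches of different motifs may overlap. A match describes the letters and shows no binding. The first 3 windows were covered in KC-H alone, that of Cd5l in both lists, and the last 3 in KN-RM alone. Timd4 lies at chr11:46810549-46810798 (plus strand), Clec4f, a galactose-binding lectin of Kupffer cells, at chr6:83656117-83656366 (minus strand), and Gas6, a bridge between dying cells and their receptors, at chr8:13494536-13494785 (minus strand). Cd5l, a secreted macrophage protein, lies at chr3:87357631-87357880 (plus strand). Gpnmb, a membrane glycoprotein of lipid-laden macrophages, lies at chr6:49036268-49036517 (plus strand), Spp1 (osteopontin) at chr5:104434861-104435110 (plus strand), and Cx3cr1, the fractalkine receptor, at chr9:120068297-120068546 (minus strand).
Timd4: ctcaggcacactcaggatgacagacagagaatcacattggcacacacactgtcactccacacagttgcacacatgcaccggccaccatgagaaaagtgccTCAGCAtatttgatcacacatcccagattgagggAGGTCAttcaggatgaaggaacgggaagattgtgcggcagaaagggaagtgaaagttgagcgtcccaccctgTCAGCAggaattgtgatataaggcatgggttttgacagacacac
Clec4f: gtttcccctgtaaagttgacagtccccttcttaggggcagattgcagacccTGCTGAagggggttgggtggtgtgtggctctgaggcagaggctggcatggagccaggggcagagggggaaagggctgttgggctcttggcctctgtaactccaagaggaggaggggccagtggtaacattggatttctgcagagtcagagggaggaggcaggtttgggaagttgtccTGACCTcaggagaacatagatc
Gas6: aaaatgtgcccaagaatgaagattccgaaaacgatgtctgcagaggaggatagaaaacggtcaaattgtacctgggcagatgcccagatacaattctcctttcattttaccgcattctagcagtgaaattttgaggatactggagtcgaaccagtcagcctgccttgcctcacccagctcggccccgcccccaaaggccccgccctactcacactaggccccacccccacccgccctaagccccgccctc
Cd5l: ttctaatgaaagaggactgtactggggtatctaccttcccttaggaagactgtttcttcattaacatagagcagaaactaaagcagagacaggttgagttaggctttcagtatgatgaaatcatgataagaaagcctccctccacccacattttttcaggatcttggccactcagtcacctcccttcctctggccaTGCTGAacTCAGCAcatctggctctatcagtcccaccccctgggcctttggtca
Gpnmb: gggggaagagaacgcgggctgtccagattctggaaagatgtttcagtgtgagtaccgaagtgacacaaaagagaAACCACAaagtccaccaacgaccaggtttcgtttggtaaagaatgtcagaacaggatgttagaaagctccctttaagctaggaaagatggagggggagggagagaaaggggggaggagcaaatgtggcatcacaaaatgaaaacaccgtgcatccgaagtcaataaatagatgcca
Spp1: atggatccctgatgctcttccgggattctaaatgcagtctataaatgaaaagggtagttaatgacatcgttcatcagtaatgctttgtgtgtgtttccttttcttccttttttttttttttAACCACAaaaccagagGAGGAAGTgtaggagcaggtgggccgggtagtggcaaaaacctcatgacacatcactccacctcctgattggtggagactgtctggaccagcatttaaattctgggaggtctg
Cx3cr1: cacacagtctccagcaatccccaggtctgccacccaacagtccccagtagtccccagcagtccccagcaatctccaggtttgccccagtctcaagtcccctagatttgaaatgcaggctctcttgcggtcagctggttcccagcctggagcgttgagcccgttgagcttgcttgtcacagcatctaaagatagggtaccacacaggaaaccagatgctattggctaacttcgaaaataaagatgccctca

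Among these, the Timd4 window had 2 MAF matches and 1 nuclear receptor match, Clec4f 1 of each, and Cd5l 2 MAF matches. Gpnmb had 1 RUNX match and Spp1 1 PU.1 and 1 RUNX match, while Gas6 and Cx3cr1 had none of the 6. Over all 21263 listed windows the MAF letters occurred in 14.9%, the nuclear receptor letters in 12.8%, the RUNX letters in 3.82% and the PU.1 letters in 2.23%. The MAF letters occurred in 12.3% of all KC-H-alone and 15.1% of all KN-RM-alone windows. For the nuclear receptor letters these shares were 8.70% and 12.9%. The matches at Timd4 and Clec4f therefore do not stand for the KC-H-alone windows as a class.

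The equal-length lists shared most of their regions. Of the peaks of both lists together, 78.9% (78.6 to 79.2) overlapped a peak of the other. KC-H-only regions numbered 7243, or 21.1% of the list, and KN-RM-only regions 7235, also 21.1%. Of the KC-H-only regions, 70.2% had no KN-RM peak centre within 1000 bp, and of the KN-RM-only regions 73.1% had no KC-H centre within that distance. Most KN-RM-only regions were not closed in KC-H: 65.5% (64.4 to 66.5) had a KC-H peak below the cut. The remaining 2499, 7.29% of all KN-RM peaks, had no peak in the deposited KC-H list. In the other direction 50.1% of the 63501 deposited KC-H peaks were found in KN-RM, a share that the lengths of the lists limit.

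Agreement followed the score. In the deposited KC-H list divided into 10 equal classes by score, 98.9% of the best-scored class was found in KN-RM, then 96.0%, 88.5%, 73.0% and 53.5% in the next classes and 6.43% in the last. Of the best-scored 10% of the equal-length lists, 37 of 3429 KC-H peaks (1.08%) were KC-H-only and 24 KN-RM peaks (0.700%) were KN-RM-only. In the last 10% the shares were 59.4% and 63.1%. List-only regions were thus mainly weak peaks, and 26 of the 37 best-scored KC-H-only peaks had a KN-RM centre within 1000 bp. Examples are a peak in Zbtb20, a transcriptional repressor gene (chr16:42875421-42875621, score 267), whose nearest KN-RM centre was 213 bp away, and one assigned to Phf19 (chr2:34905145-34905345, score 242), with a centre at 208 bp. Neighbouring peak calls of this kind count as list-only by the 1 bp rule.

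How far the Tim4-negative cells held sites of resident Kupffer cells was asked with KC-H peaks that the equal-length blood monocyte list lacked, here called resident regions. There were 11414 of them, 33.3% of the KC-H list. KN-RM held 6383, or 55.9% (55.0 to 56.8). KC-N, the Tim4-positive cells of the same diet, held 61.1% (60.2 to 62.0). Ly6CLo-RM held 27.0% (26.2 to 27.9) and Ly6CHi-RM 21.0% (20.3 to 21.7). At equal length KN-RM was therefore below KC-N and above both recruited populations. The intervals hold no spread between libraries, and all lists were scored on the same regions, so they do not test this order. With the other lists uncut, the same resident regions were found at 83.2% in KC-N, 52.4% in Ly6CHi-RM and 48.0% in Ly6CLo-RM, beside the unchanged 55.9% of the shorter KN-RM list. KN-RM thus stayed between KC-N and the recruited lists, but far under KC-N and just over the recruited cells. Ly6CHi-RM then stood above Ly6CLo-RM, the reverse of their order at equal length. KC-H peaks that the blood list also had were held by KN-RM at 90.3%, by KC-N at 91.4%, by Ly6CLo-RM at 89.8% and by Ly6CHi-RM at 94.7%, a much narrower range. With the common peaks weighted to the score classes of the resident regions, KN-RM held 77.1%, KC-N 78.5% and Ly6CLo-RM 79.5%.

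The converse set was the monocyte regions, 11403 blood peaks that KC-H lacked. KN-RM kept 23.2% (22.4 to 24.0) of them and KC-N 20.7% (20.0 to 21.5). Ly6CLo-RM kept 44.8% and Ly6CHi-RM 64.0%. With the other lists uncut KC-N kept 45.1%, above the 23.2% of KN-RM, so the order of these groups turned with list length, and the recruited lists kept 76.2% and 95.3%. Both sets were drawn with the KC-H and blood lists, so the shares are read only against those of the other lists and not as fractions of a path from monocyte to Kupffer cell. Of the 2647 monocyte regions that KN-RM kept, 59.0% were also open in KC-N.

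**Figure D1:**
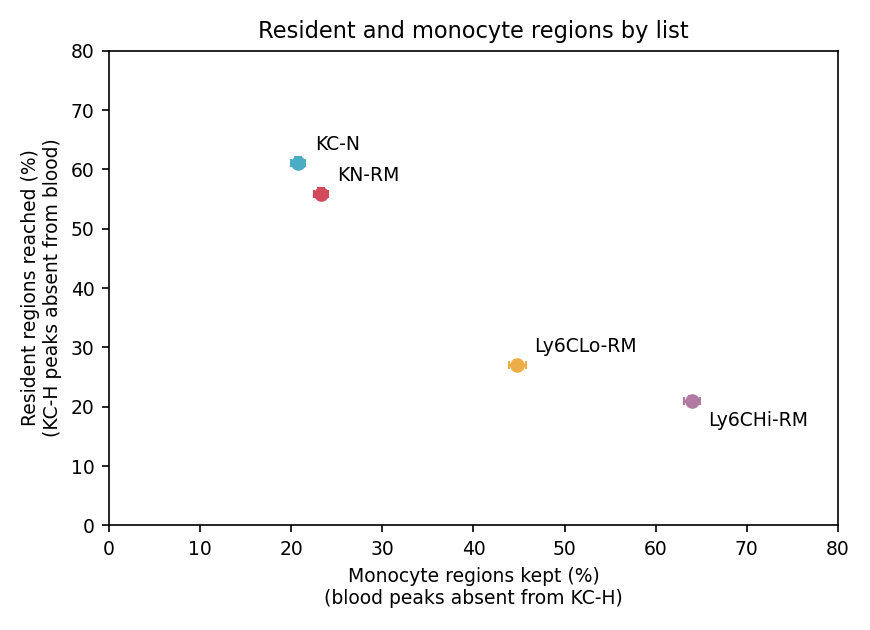
Share of monocyte regions kept (x axis, %) against share of resident regions reached (y axis, %) for 4 equal-length lists, 1 point per list with 95% Wilson intervals over regions. KN-RM (23.2%, 55.9%) lies next to KC-N (20.7%, 61.1%) and away from Ly6CLo-RM (44.8%, 27.0%) and Ly6CHi-RM (64.0%, 21.0%).

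KN-RM lay below KC-N in every score class of resident regions. Of the 103 resident regions in the best-scored class of the equal-length KC-H list, KN-RM held 82.5% (74.1 to 88.7), KC-N 95.1% and Ly6CLo-RM 52.4%. In the next class of 283 regions the shares were 87.3%, 94.7% and 32.9%. In the class ranked eighth they were 50.1%, 57.5% and 26.1%, a gap between KN-RM and KC-N much like that of the class ranked second. In the last class KN-RM held 32.8% and KC-N 34.0%, with overlapping intervals. Where resident regions were defined by absence from the whole deposited blood list, 5779 remained, and KN-RM held 47.2% (45.9 to 48.5), KC-N 55.9% (54.6 to 57.2), Ly6CLo-RM 12.6% and Ly6CHi-RM 5.17%.

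**Figure D2:**
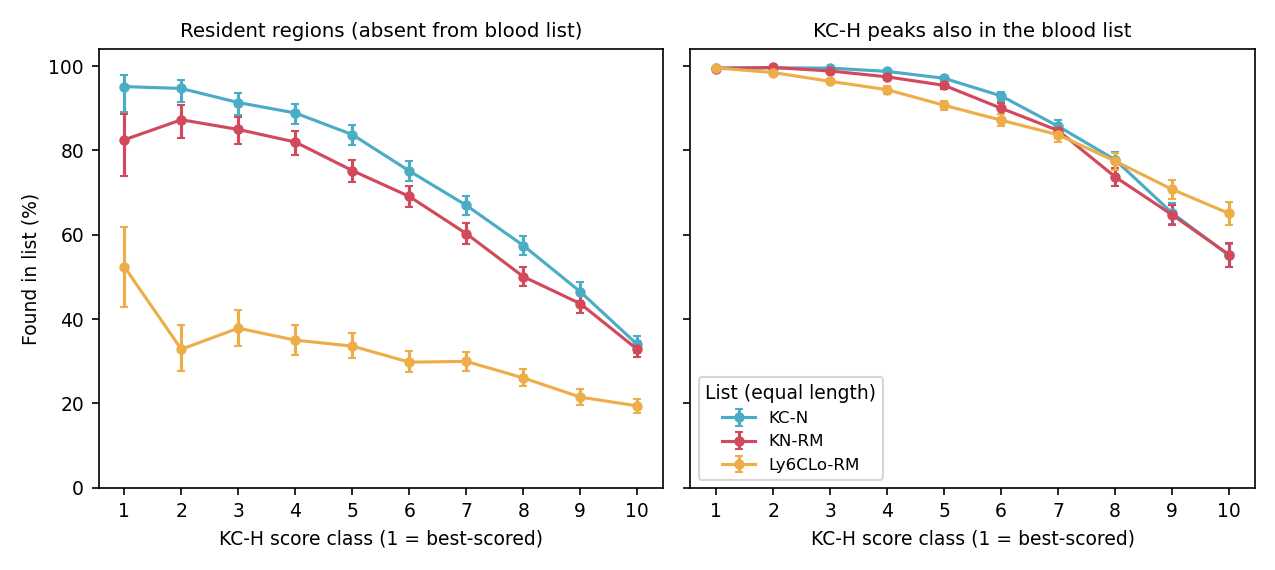
Share of KC-H peaks that KN-RM, KC-N or Ly6CLo-RM held (y axis, %) by KC-H score class (x axis, 1 is the best-scored 10% of the equal-length list), for resident regions (left) and peaks shared with blood (right), with 95% Wilson intervals. Among resident regions KN-RM lies under KC-N and above Ly6CLo-RM in each class. Among peaks shared with blood the lists lie closer, though in class 10 Ly6CLo-RM (65.1%) stands above KN-RM (55.3%) and KC-N (55.1%).

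KN-RM and KC-N mostly held and lacked the same resident sites. Both held 5315 (46.6%), neither held 3370 (29.5%), KC-N alone 1661 (14.6%) and KN-RM alone 1068 (9.36%). Of the resident regions that KN-RM lacked, 67.0% (65.7 to 68.3) were missing from KC-N too. Of those KC-N held, KN-RM held 76.2%, and of those KC-N lacked, 24.1%. The part that KC-N kept and KN-RM lacked was thus 1661 of the 5031 unreached regions.

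All KC-H-only and KN-RM-only regions were then placed by their presence in KC-N and blood. KC-H-only regions were found in KC-N at 39.0%, in Ly6CLo-RM at 27.2%, in Ly6CHi-RM at 28.8% and in blood at 30.5%. KN-RM-only regions were found in KC-N at 49.8%, in Ly6CLo-RM at 46.7%, in Ly6CHi-RM at 44.3% and in blood at 36.5%. Shared regions of KC-H were found in these lists at 92.7%, 80.1%, 81.2% and 76.4%. The KN-RM-only set was split between sites open in KC-N but not blood (28.3%), in both (21.5%), in blood but not KC-N (15.0%) and in neither (35.2%). In none of the other 4 equal-length lists were 40.9% of KC-H-only and 25.8% of KN-RM-only regions. Against the uncut lists of all other groups, the KC-H peaks below the cut included, those shares were 14.6% and 3.64%, so nearly every KN-RM-only region had a peak in another population.

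**Figure D3:**
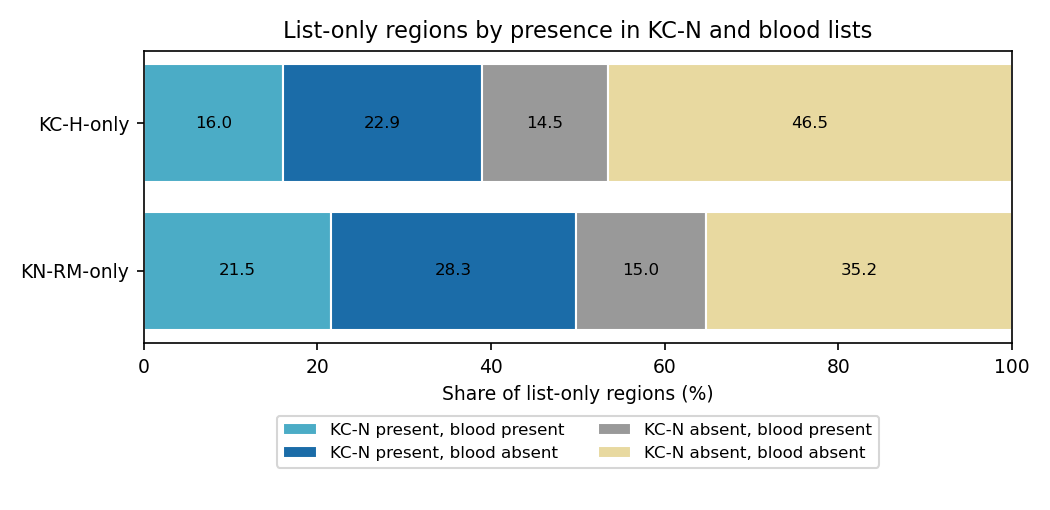
Share of KC-H-only and KN-RM-only regions (x axis, %) by presence in the equal-length KC-N and blood lists. The class absent from both is the largest in each bar, 46.5% of KC-H-only and 35.2% of KN-RM-only regions, and 28.3% of KN-RM-only regions were present in KC-N and absent from blood.

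List-only regions were less often promoters than shared ones. Within 1000 bp of a listed gene start lay 35.3% of shared KC-H peaks, 22.4% (21.4 to 23.3) of KC-H-only and 14.3% (13.5 to 15.1) of KN-RM-only regions. Gene starts were listed for 17492 of 21900 protein-coding genes, so these shares are low estimates. More than 10 kb from any gene end lay 34.8%, 47.1% and 50.3%. Resident regions reached and not reached in KN-RM differed little in position, with 16.7% and 19.4% near a start.

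At promoters, 38.1% of the 21263 windows from 250 bases before to 50 after the start overlapped a peak in both lists. In KC-H alone 690 (3.25%) were covered, and in KN-RM alone 350 (1.65%), of which 223 had a KC-H peak below the cut. Of 20 Kupffer cell identity genes with a window, 7 were covered in KC-H alone (C6, Clec4f, Hpgd, Il18bp, Pcolce2, Slc16a9 and Timd4), 5 in both and 0 in KN-RM alone. Of 13 Trem2-type genes, 5 had a window covered in KN-RM alone (Cd63, Gpnmb, Itgax, Mmp12 and Spp1) and 7 had one covered in both. The lipid carrier Apoe had a window covered in both and another in KC-H alone, so a gene with several starts can count more than once. The shares over all 17492 genes were 3.65% for KC-H alone and 1.92% for KN-RM alone. The window of Gas6 was covered in KC-H alone, and that of Cx3cr1 and 1 of the 2 of Runx3 in KN-RM alone. Tnfaip3 had 1 window covered in both lists and 1 in KN-RM alone.

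The 2 kinds of window differed in base makeup. The median number of CpG dinucleotides was 18 in KC-H-alone windows, as in windows covered in both, and 10 in KN-RM-alone windows, as over all windows. The KLF and SP letters GGGCGG occurred in 65.5% (61.9 to 69.0) of KC-H-alone and 44.0% (38.9 to 49.2) of KN-RM-alone windows. The AP-1 letters occurred in 3.33% (2.23 to 4.95) and 6.57% (4.42 to 9.67), beside 6.13% over all windows, and the RUNX letters in 3.77% and 5.14%, beside 3.82%. The part of the differing CpG content in these shares was not tested. Distal regions, most of the list-only set, were not searched for motifs.

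Genes were next grouped by function. Over all genes with a peak in either list, 25.1% had more KC-H-only than KN-RM-only regions and 24.9% the reverse, and 20.6% of gene-assigned KC-H peaks and 20.7% of KN-RM peaks were list-only. These are the shares against which the lists are read. The Kupffer cell identity list, genes known to mark these cells, had the widest gap toward KC-H among lists with at least 20 peaks in each group: 71 of its 144 KC-H peaks were KC-H-only (49.3%) and 17 of its 89 KN-RM peaks KN-RM-only (19.1%). Of its 24 genes with peaks, 17 had more KC-H-only and 5 more KN-RM-only regions, and the median difference was 1 region, beside 0 over all genes. Marco and Timd4 contributed 17 of the 71, and without them 54 of 127 KC-H peaks (42.5%) were KC-H-only. KC-N held 23 of the 71, blood 2 and Ly6CLo-RM 1, each below its share of all KC-H-only regions (39.0%, 30.5% and 27.2%). Of the list's 114 resident regions KN-RM held 45 (39.5%) and KC-N 62 (54.4%), beside 55.9% and 61.1% of all resident regions.

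**Figure D4:**
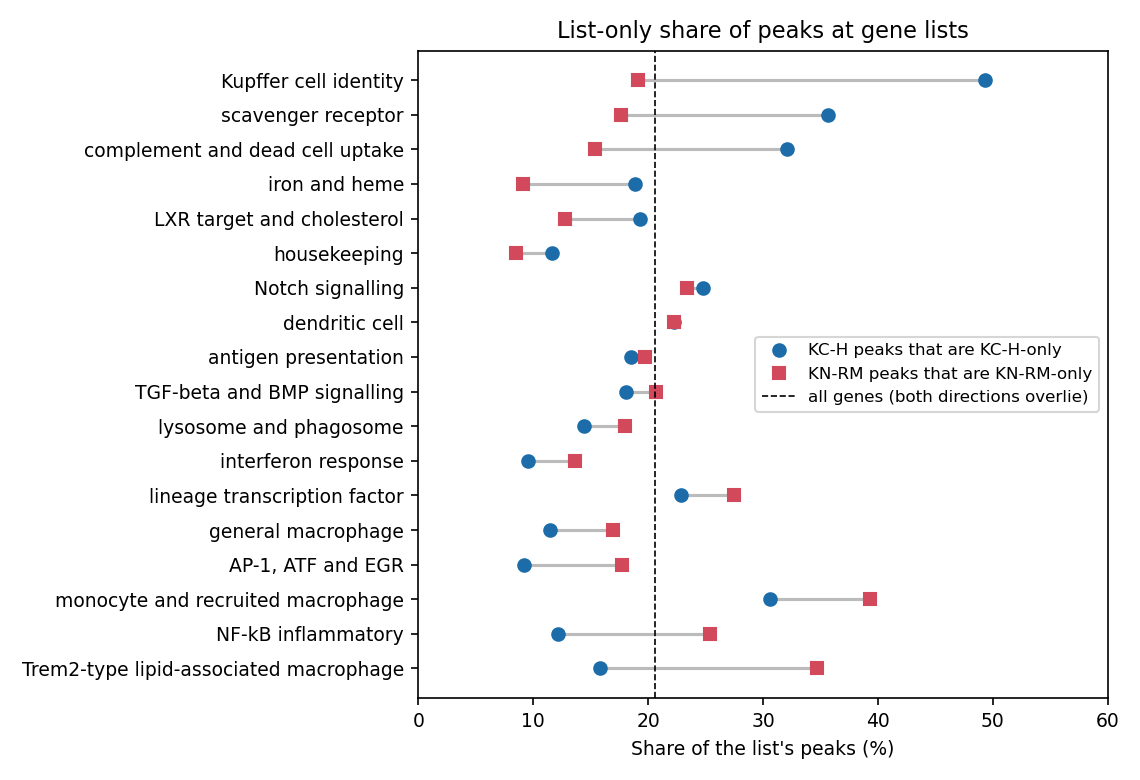
Share of KC-H peaks that are KC-H-only (circles) and of KN-RM peaks that are KN-RM-only (squares) at genes of 18 lists with at least 20 peaks in each list (x axis, %). The dashed line marks all genes, and the Kupffer cell identity list (49.3% and 19.1%) and the Trem2-type list (15.8% and 34.7%) lie at the ends.

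Timd4 (chr11) had 7 peaks in KC-H, with scores of 46 to 95 from 14.9 kb before to 19.7 kb after its start, and none in KN-RM, KC-N or blood. Tim4 was used in the sort, so this is no finding between the groups, and the 0 in the Tim4-positive KC-N means that it does not check the gate either. Marco, a scavenger receptor for bacteria and particles, had 10 KC-H peaks with scores of 49 to 112, 0 in KN-RM, 2 in KC-N and 1 in blood. Its strongest KC-H peaks stood 27.7 and 12.7 kb before the start, and both KC-N peaks beyond the gene's far end. Neither gene had any resident region in KN-RM, 0 of 7 at Timd4 and 0 of 9 at Marco.

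Clec4f gave a mixed picture. Of its 6 KC-H peaks, the promoter peak (chr6:83655999-83656199, score 75), centred 17 bp after the start, was KC-H-only and absent from KC-N as well. Of the 5 peaks 18.2 to 24.1 kb after the start, beyond the end of the 11.6 kb gene, 4 were found in KN-RM with scores of 24 to 54. The distal cluster was thus present in cells whose promoter peak was not called. The KN-RM list had 1 further peak 42.7 kb after the start, shared with KC-N.

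Other identity genes ranged between these cases. Hpgd, which degrades prostaglandins, had 9 KC-H and 2 KN-RM peaks, and none of its 7 resident regions was reached in KN-RM (3 in KC-N). Slc40a1, the iron exporter ferroportin, had 7 KC-H peaks and 2 in each of KN-RM and KC-N. Kcna2, a potassium channel gene, had 9 and 3. Cd5l had 9 and 10 peaks, with 3 KC-H-only, 4 KN-RM-only and its promoter peak shared. Vsig4, a complement receptor, had 1 peak in each list, and Cd163, the haemoglobin receptor, 3 and 2. Spic, a transcription factor of iron-recycling macrophages, had 3 and 2, Id3, a factor needed for Kupffer cells, 12 and 13, Id1, a BMP target, 7 and 5, and Nr1h3, which encodes LXR-alpha, 3 and 2. These 4 regulators thus had similar peak counts in both lists, while Timd4, Marco and Hpgd had few or none in KN-RM.

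**Figure D5:**
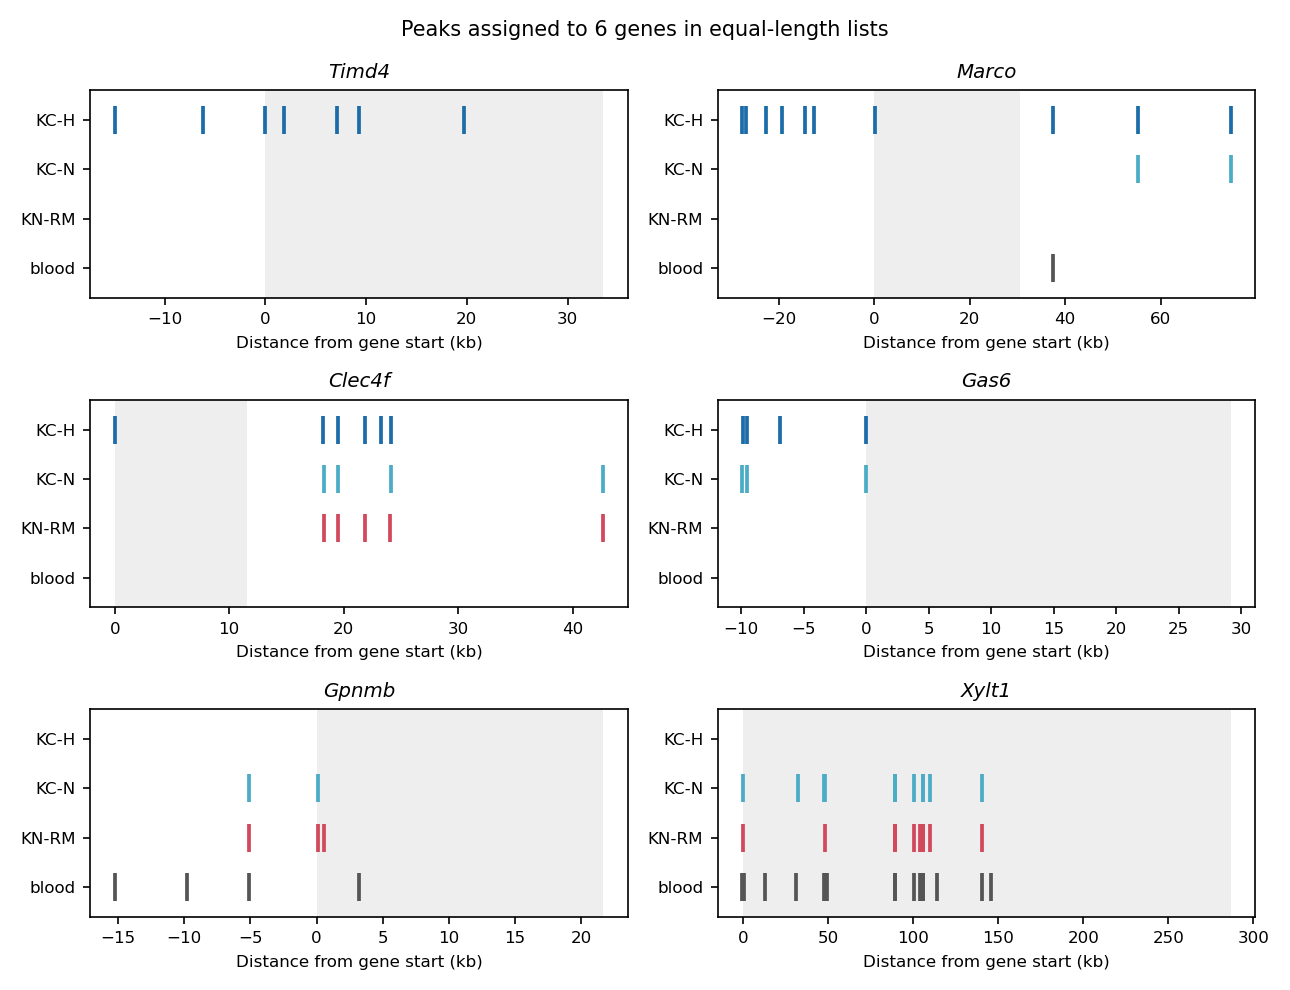
Peaks of the equal-length KC-H, KC-N, KN-RM and blood lists (rows, 1 tick per peak) by distance from the gene start (x axis, kb) for Timd4, Marco, Clec4f, Gas6, Gpnmb and Xylt1, with the gene body shaded. KN-RM has no tick at Timd4, Marco and Gas6, 4 ticks in the distal Clec4f cluster, and 3 at Gpnmb and 10 at Xylt1, where KC-H has 0.

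Among clearance genes, those of complement, dead cell uptake and scavenger receptors had larger KC-H-only shares than all genes. The complement and dead cell uptake list had 26 of 81 KC-H peaks KC-H-only (32.1%) and 10 of 65 KN-RM peaks KN-RM-only (15.4%), or 19 of 73 and 10 of 64 without genes of the identity list. With only the best-scored 50% of each list this balance was 8 and 7. Gas6 had 4 KC-H peaks with scores of 60 to 73, at the start and 6.9 to 9.8 kb before it, 0 in KN-RM and 3 in KC-N. Its receptor genes were less divided: Mertk had 13 KC-H and 11 KN-RM peaks and Axl 4 and 2. The scavenger receptor list had 31 of 87 (35.6%) and 12 of 68 (17.6%), or 17 of 65 and 8 of 56 without identity genes. In it Scarb2, a lysosomal membrane protein gene, had 17 and 12 peaks with 5 KC-H-only, and Stab2, a hyaluronan scavenger receptor, 10 and 7. Of the 5 at Scarb2, only 1 lay over 1000 bp from a KN-RM centre, beside 70.2% of all KC-H-only regions. The Stab2 peaks are also among the 16 and 13 counted above for liver endothelial markers. Cd36, a fatty acid receptor, went the other way with 6 and 10 peaks, 0 KC-H-only and 4 KN-RM-only. The iron and heme list had 16 of 85 (18.8%, below all genes) and 7 of 77, or 9 of 72 and 7 of 71 without identity genes, and with only the best-scored 50% its balance turned to 4 and 9.

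In the sterol list, 23 of 119 KC-H peaks (19.3%) and 14 of 110 KN-RM peaks (12.7%) were list-only, both under the shares of all genes. KN-RM held 39 of its 60 resident regions (65.0%) and KC-N 37. Abca1, the cholesterol exporter and an LXR target, had 27 KC-H and 24 KN-RM peaks, and 9 of its 14 resident regions were reached (11 in KC-N). Rxra, the partner of LXR, had 14 and 10 peaks with 4 KC-H-only. Apoe had 5 and 2 peaks with 3 KC-H-only, and KC-N also had 2.

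Niche signalling lists were balanced. Notch genes had 23 of 93 KC-H and 21 of 90 KN-RM peaks list-only, and TGF-beta and BMP genes 21 of 116 and 25 of 121. Within the Notch list the members parted: the receptor gene Notch2 had 14 KC-H and 7 KN-RM peaks, with 8 KC-H-only of which KC-N held 6. Rbpj, the DNA-binding factor of the pathway, had 5 and 9 peaks, with 5 KN-RM-only, all present in KC-N. Only 1 of these 5 lay over 1000 bp from a KC-H centre, beside 73.1% of all KN-RM-only regions. In the TGF-beta list Ski, a repressor of SMAD signalling, had 6 and 10 peaks with 5 KN-RM-only.

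Among lists with at least 20 peaks in each group, the Trem2-type list had the widest gap between the shares toward KN-RM. Of its KN-RM peaks 34 of 98 (34.7%) were KN-RM-only, and of its KC-H peaks 12 of 76 (15.8%) were KC-H-only. Of 18 genes with peaks, 11 had more KN-RM-only regions (61.1%, beside 24.9% of all genes) and 2 more KC-H-only. KC-N held 23 of the 34, Ly6CLo-RM 14 and blood 8. Over all KN-RM-only regions these lists held 49.8%, 46.7% and 36.5%, so only the KC-N count lay above its usual share. With the deposited lists, where KC-H has more peaks, the counts turned to 53 KC-H-only and 17 KN-RM-only. Those 17 are 17.3% of the list's KN-RM peaks, beside 7.15% over all genes.

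Gpnmb had 3 KN-RM peaks with scores of 20 to 28, near the start and 5.1 kb before it, and 0 in KC-H, while KC-N had 2 and blood 4. Spp1 had 1 KN-RM peak at its promoter and 0 in KC-H, with 1 in KC-N and 3 in blood. Cd63, a tetraspanin of endosomes, had 3 KN-RM and 0 KC-H peaks. Its fellow tetraspanin Cd9 had 13 KN-RM and 8 KC-H peaks, with 6 KN-RM-only of which 4 were in KC-N. Trem2 itself, the lipid receptor that names the program, had 3 peaks in each list and all were shared. The Trem2-type difference was thus carried by other genes of the list.

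The inflammatory lists had more KN-RM-only than KC-H-only regions at equal length. Of NF-kB target peaks, 32 of 126 in KN-RM (25.4%) and 13 of 107 in KC-H (12.1%) were list-only, with 66 KC-H-only and 11 KN-RM-only against the deposited lists. Tnfaip3, an inhibitor of NF-kB, had 13 KC-H and 19 KN-RM peaks. Of its 8 KN-RM-only regions 5 were in KC-N, beside 49.8% of all KN-RM-only regions. The chemokine gene Cxcl2 had 3 and 5, and Ptgs2, a prostaglandin synthase, 2 and 5. For the AP-1, ATF and EGR list the shares were 17.8% (30 of 169) in KN-RM and 9.21% (14 of 152) in KC-H, both below the shares of all genes. Its counts of 14 KC-H-only and 30 KN-RM-only regions became 13 and 17 with the best-scored 50% of each list, 3 and 13 with centres within 1000 bp counted as shared, 13 and 19 with genes assigned within 20 kb, and 100 and 19 with the deposited lists. Atf3, a stress-induced repressor, had 9 and 15 peaks with 6 KN-RM-only, Klf6 23 and 27, and Fos 15 and 18.

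Genes of monocytes differed in both directions. The monocyte and recruited macrophage list had 22 of 56 KN-RM peaks (39.3%) and 15 of 49 KC-H peaks (30.6%) list-only, both above the shares of all genes, and the KN-RM-only share was the highest among lists with at least 20 peaks in each group. Of its 16 genes with peaks, 6 had more KN-RM-only and 3 more KC-H-only regions. Plac8 leaned to KC-H, with 7 KC-H and 4 KN-RM peaks, 4 KC-H-only and 1 KN-RM-only. Ccr2, the monocyte chemokine receptor, had 2 peaks in each list. Ly6c2, which encodes the Ly6C antigen, had 3 in each, all outside the gene, and the equal-length blood list lacked the 3 of KC-H. The Ly6c2 promoter windows were covered in blood but in neither KC-H nor KN-RM. Fn1 (fibronectin) had 1 in each, also outside the gene, and 5 in blood. Cx3cr1 had 2 KC-H and 5 KN-RM peaks, and all 4 KN-RM-only regions were present in Ly6CLo-RM and blood. Itgam, which encodes CD11b, had 1 and 5, with 3 of 4 KN-RM-only regions in blood and 1 in KC-N. Runx3, from the lineage factor list, had 2 and 8 peaks, and its 6 KN-RM-only regions were found in Ly6CLo-RM at 6, in blood at 4 and in KC-N at 1. Most of the KN-RM-only regions of Cx3cr1 and Runx3 were thus shared with recruited cells, and KC-N held 2 of 4 at Cx3cr1. Over all KN-RM-only regions Ly6CLo-RM held 46.7%, blood 36.5% and KC-N 49.8%.

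The remaining lists are given with KC-H first, beside list-only shares of 20.6% and 20.7% over all genes. Lineage transcription factors had 51 of 223 KC-H and 65 of 237 KN-RM peaks list-only, among them Pparg, a lipid-responsive nuclear receptor, with 6 and 12 peaks and 6 KN-RM-only of which KC-N held 1. Cebpb, a factor of monocytes and macrophages, had 24 and 30 peaks. KC-N held 8 of its 10 KN-RM-only regions, beside 49.8% of all such regions. Antigen presentation genes had 12 of 65 and 13 of 66, with H2-Eb1, an MHC class II gene, at 5 and 9 peaks. Interferon response genes had 2 of 21 and 3 of 22 (9.52% and 13.6%), and lysosome and phagosome genes 16 of 111 and 21 of 117 (14.4% and 17.9%). General macrophage genes had 7 of 61 and 11 of 65 (11.5% and 16.9%), and housekeeping genes 7 of 60 and 5 of 59 (11.7% and 8.47%). In these lists both shares were below those of all genes. Lists of other cell types held 1 of 2 and 2 of 3 (hepatocyte), 5 of 20 and 0 of 15 (endothelial), 0 of 11 and 1 of 12 (stellate), 1 of 5 and 6 of 10 (T and NK), 4 of 7 and 1 of 4 (B), 2 of 6 and 2 of 6 (neutrophil) and 6 of 27 and 6 of 27 (dendritic). Several of these shares lay far from those of all genes, on few peaks. The part of other cells in the sorts was not tested.

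Genes at the ends of the resident set, named for their counts, were also listed. All resident regions were reached at Rap1b (14), a small GTPase gene, Pik3ap1 (11), an adaptor of PI3K signalling, Filip1l (10), Bach2 (9), Arhgap25 (8), Xdh (8), Cd47 (7), Hilpda (7), Plekho2 (7) and Tomm20 (7). At Pik3ap1 KC-N held 5 of the 11 and at Rap1b 13 of 14. These genes were chosen because KN-RM held every resident region, so KC-N could only match or fall below it. None was reached at Tshz2 (13), Ccny (13), Marco (9), Timd4 (7), Hpgd (7), Dlgap2 (7) and, with 6 each, Ldoc1, Nos1 and Slc7a14. At these KC-N held between 0 and 5, with 5 at Tshz2, a zinc finger gene, and 2 at Ccny, a cyclin gene. Here the choice of genes let KC-N only match or exceed KN-RM. Ptprm, a receptor phosphatase gene, had 18 KC-H and 7 KN-RM peaks with 11 KC-H-only.

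The most KN-RM-only regions were at Sgms1, a sphingomyelin synthase gene, with 14 KC-H and 26 KN-RM peaks and 12 KN-RM-only. Sfi1 and Vps13d had 11 each, and Xylt1, Cebpb and Hjurp 10 each. Over 1000 bp from a KC-H centre lay 11 at Sgms1, 10 at Xylt1 and 9 at Vps13d. Only 5 did so at Cebpb and 3 each at Sfi1 and Hjurp, and the others had a nearer KC-H centre. Of all KN-RM-only regions 73.1% lay that far. Xylt1, which starts proteoglycan chains, had 0 KC-H, 10 KN-RM, 11 KC-N and 17 blood peaks. Of its 10 KN-RM peaks, 9 were in KC-N, 9 in blood, and 9 had no peak in the deposited KC-H list. Its KN-RM sites were thus open as well in Tim4-positive cells and blood monocytes of NASH diet mice. At Sgms1 KC-N held 5 of the 12 KN-RM-only regions and blood 6, beside 49.8% and 36.5% of all KN-RM-only regions.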

How the data were processed

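ATAC-seq peaks of sorted mouse liver macrophages and blood monocytes were taken as deposited, 1 list per group made from 2 libraries. Per the submitters' processing notes, HOMER, Bowtie2 and DESeq2 were used with the builds GRCm38 and mm10, without stated roles or versions. The deposited lists give each peak a normalized tag count, a signal of the authors' own normalization, and a whole-number score, which the authors' processing set and whose scale is not given in the sources used here. Read depth per library is not given there either, so the depth behind a peak is unknown. Values of the authors' scores were used only to rank peaks within a list.

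Lists were ranked by score, with ties broken by tag count, and cut to 34293 peaks. Overlap meant at least 1 shared base. Peaks were assigned to the 21900 protein-coding genes of RefSeq GRCm38.p6 within 100 kb, and promoter windows came from the same source. Named genes were the 15 with most list-only regions in each direction, the 10 with most resident regions all reached and the 10 with none reached, up to 4 leading members of each of 24 gene lists (Kupffer cell identity to housekeeping), and 20 marker genes; the text gives a part of these. Promoter windows and genes named only for their promoters were chosen after their values were seen. The members and lists were chosen with earlier results of these data known. With 1 list per group, no test was possible and only Wilson intervals at 95% are given. The scripts were tested on simulated peaks. Computation used scipy 1.17.1, pandas 2.3.3 and numpy 2.4.6 under Python 3.11.15, and plots used matplotlib 3.10.9. Alternatives were other overlap rules, list lengths, ranking by tag count, gene distances, start distances and definitions of resident regions.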

Additional observations from a re-analysis of the deposited data

How the results depend on the processing

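The comparison of KN-RM with KC-N and the recruited lists was run at equal length, with the other lists uncut and, for resident regions, with the deposited blood list, but not under the other alternatives. The identity list kept its KC-H-only excess under each alternative run, and many values followed the length of the lists. With 50% of the shorter peak required, the overlap share was 77.7%, and with centres within 1000 bp counted as shared it was 84.9% and resident regions reached were 59.7%. With the lists as deposited the overlap share was 65.0%, KC-H-only regions numbered 31704 and KN-RM-only regions 2499, resident regions reached were 20.2%, monocyte regions kept were 5.39%, and the identity list had 206 more KC-H-only than KN-RM-only regions. The main excess was 54. The longer KC-H list by itself adds KC-H-only regions, and under it the Trem2-type, NF-kB and AP-1 lists turned from an excess in KN-RM to an excess in KC-H of 36, 55 and 81. With the best-scored 50% of each list the overlap share was 80.4%, the list-only counts were 3357 and 3355, resident regions reached were 58.9%, monocyte regions kept 20.6% and the identity excess 18, and the iron and heme list turned to -5, where the cause was not tested. Ranking by tag count gave 56.9% of resident regions reached and 22.4% of monocyte regions kept. Resident regions defined by the deposited blood list, an alternative added after seeing the data, were reached at 47.2%. Within 500 bp or 2500 bp of a start lay 16.5% or 27.5% of KC-H-only, 9.48% or 20.6% of KN-RM-only and 31.0% or 40.2% of shared regions, and within 1 kb of either gene end, also added later, 25.3%, 16.9% and 39.2%. No paired analysis was possible because each group has 1 list made from both of its libraries, and no library could be left out for the same reason. Peaks near the cut are the least certain, since 847 KC-H peaks share the score at which the list was cut.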

Other observations

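Of the 37 KC-H-only peaks in the best-scored 10% of the list, 11 had no KN-RM centre within 1000 bp, and these were looked at after their values were seen. KC-N held 10 of the 11, blood 1 and Ly6CLo-RM 0. They included a peak 757 bp from the start of Nova1, an RNA-binding protein gene (chr12:46819424-46819624, score 188), and a pair in Edil3, a matrix protein gene (scores 185 and 185), whose nearest KN-RM centres were 1727 and 355 kb away. Others lay at Robo2, Cntnap2, Marchf4 and Tgfb2. Thus 10 of these 11 sites had a peak in Tim4-positive cells of both diets. In this score class KC-N held 95.1% of resident regions and 99.6% of KC-H peaks shared with blood. The 10 of 11 were therefore not above the usual share of KC-N.

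Isolated list-only regions differed by direction. Over 100 kb from any centre of the other list lay 762 KC-H-only regions (10.5%). Of these KC-N held 27.6% (24.5 to 30.8), Ly6CLo-RM 13.3% and blood 17.6%, beside 39.0%, 27.2% and 30.5% of all KC-H-only regions. In the other direction there were 352 KN-RM-only regions (4.87%). Of these KC-N held 61.1% (55.9 to 66.0), Ly6CLo-RM 61.9% and blood 53.4%, beside 49.8%, 46.7% and 36.5% of all KN-RM-only regions.

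The X chromosome carried 567 KC-H, 544 KC-N and 470 KN-RM peaks of 34293 (1.65%, 1.59% and 1.37%), and the other lists 1.82% to 1.97%. On it 26.8% of KC-H peaks were KC-H-only and 11.7% of KN-RM peaks KN-RM-only, and the Y chromosome had 6 and 9 peaks. The sex of the mice is not given in the sources used here, and the part of sex in these counts was not tested.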
